A study of Rattus norvegicus with 93 samples.

Results

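The tissue that filled 8 mm holes in the rat skull roof was compared between day 21 and the earlier days 10 and 14. The members are arrays: each array whose title gives 8 mm and day 10, 14 or 21 was taken, which gave 6 arrays at each of these days and 18 of the 93 arrays of the series. The 6 arrays of day 21 were set against the 12 earlier arrays together. The rule reads the titles and no measured value. The series follows repair of round trephine holes, 4 or 8 mm wide, in the calvaria of male rats aged 12 weeks, and its design text calls the 8 mm hole CSD, the usual abbreviation of critical-size defect, and the 4 mm hole non-CSD. All 18 animals were handled alike apart from the day of harvest: the bone disc was lifted out, the dura mater was kept, the skin was sutured, and nothing was put into the hole. The plug was cut out again with a trephine of the same width, so a sample holds new tissue of the whole hole, and each array carries Cy3-labelled RNA of 1 defect. Unoperated bone was not analysed here, and the titles give a rat number but no further tie between animals.

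Flat skull bones heal mainly by direct ossification, in which cells from the dura and the bone rim divide, become osteoblasts and lay down a collagen matrix that then mineralizes. Osteoblasts that become enclosed turn into osteocytes, and osteoclasts, which derive from the monocyte lineage, remodel the new bone. Cell division and inflammatory cells are most prominent early in such wounds, and marrow and vessels form later. In whole tissue, fewer cells of a type and less RNA per cell cannot be told apart.

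Values are log2 of the authors' deposited ratio, in which a probe's median over the series is near 1 for most probes, so 0 stands for that median and levels of different genes are not comparable. The deposited ratios stop at 0.01, a log2 value of -6.64, and values there have no order. A change is day 21 minus the mean of days 10 and 14, ± SE, from limma, fitted to all 93 arrays with the spread shared by 14 day and size groups. Adjusted p-values are Benjamini-Hochberg values over 15974 genes, with a threshold of 0.05, and they measure the spread between these samples. The share of values at the floor was higher at day 21 (21.4% ± 1.75, SD, n = 6) than at days 10 and 14 (17.5% ± 3.66 and 16.3% ± 2.63, n = 6 each), by 4.54 percentage points (exact permutation test over 18564 splits, two-sided p = 0.00409). The array level, the median log2 value of probes never at the floor, was -0.259 at day 21 and -0.0663 earlier (exact permutation p = 0.336). It was lowest on rats 11 and 10 of day 10 (-0.966 and -0.77). The label is calvarial bone with healing tissue, and the osteoblast gene Bglap stood above its series median on all 18 arrays, at 2.82 or more. Genes of brain, which lies under the dura, had a mean log2 value, or score, of 4.15 on rat 11 of day 14 against -2.29 to 0.192 on the other 17 arrays, and genes of skeletal muscle had one of 1.51 on rat 12 of day 14 against -3.68 to -0.811. The number of arrays limits the precision.

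By day 21, 729 of 15974 genes (4.56%) had changed, 100 of them higher (0.626%) and 629 lower (3.94%). The direction was the same against day 10 and against day 14 for all 729. The pooled change is the mean of both these changes, so the choice of genes by it favours this agreement. Many of the lower genes had reached the floor: 468 of the 629 were at 0.01 on at least 1 array of day 21, and 16 on all 6. Of 6822 genes with no floor value on any of the 18 arrays, 217 changed (3.18%), 56 higher (0.821%) and 161 lower (2.36%), with changes from -2.86 to 2.78 and medians of 1.38 for the higher and -1.46 for the lower. Passing or not, the change was negative for 4330 of these 6822 genes and positive for 2492. The median change of all genes was -0.23, which was 0.05 after quantile normalization and -0.04 with arrays centred on their level. With centring 1134 genes passed, of which 33.4% were higher against 13.7% of the 729, and quantile normalization left 53. A fit of the 18 arrays alone, whose SE had a median of 0.965 against 0.773, called 22 genes, 20 of them among the 729, while 674 of the 729 had an unadjusted p under 0.05 in it. The number of calls therefore depends on whether the remaining arrays of the series, other days and 4 mm defects, enter the fit.

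Of 28 measured genes of the cell cycle list, 5 fell and 0 rose (limma; at an unadjusted p under 0.05, 12 lower and 1 higher), beside 3.94% and 0.626% of all genes (17.8% in either direction unadjusted), and the median change of the list was -0.71 beside -0.23 for all genes. After quantile normalization these medians were -0.06 and 0.05, with Top2a at -0.72 and Ccna2 at -0.59. Without this scaling the skeletal muscle list had a lower median (-1.06) and the inflammatory cytokine list the same one (-0.71), with 0 members passing in either. The 5 cell cycle genes that fell were Top2a, Ccna2, Tpx2, Mki67 and Aurka. Many mitotic genes carry CCAAT boxes, bound by NF-Y, and the cell cycle homology element TTTGAA, bound by DREAM and MuvB complexes, close to their start. Promoters are shown because 3 of the 5 had one in the RefSeq table of build GRCr8, from 250 bases before to 50 after the start. Each is written 5′ to 3′ in the direction of its gene, on the minus strand, with matches to CCAAT or TTTGAA on either strand (ATTGG and TTCAAA on the other) in capitals. They lie at chr10:84473044-84473343 for Top2a, chr1:199952544-199952843 for Mki67 and chr3:181560720-181561019 for Aurka.
Top2a: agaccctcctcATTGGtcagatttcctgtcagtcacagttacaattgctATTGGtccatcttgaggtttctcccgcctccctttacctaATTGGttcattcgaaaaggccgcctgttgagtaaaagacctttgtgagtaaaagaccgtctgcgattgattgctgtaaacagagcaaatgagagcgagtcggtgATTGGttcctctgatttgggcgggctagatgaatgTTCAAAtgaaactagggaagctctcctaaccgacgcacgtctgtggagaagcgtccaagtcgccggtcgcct
Mki67: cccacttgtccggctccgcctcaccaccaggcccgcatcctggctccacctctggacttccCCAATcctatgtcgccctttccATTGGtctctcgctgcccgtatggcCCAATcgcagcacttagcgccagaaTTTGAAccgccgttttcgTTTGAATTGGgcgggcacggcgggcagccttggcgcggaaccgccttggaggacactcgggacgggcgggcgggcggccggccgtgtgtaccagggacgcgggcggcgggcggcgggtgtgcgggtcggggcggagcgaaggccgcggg
Aurka: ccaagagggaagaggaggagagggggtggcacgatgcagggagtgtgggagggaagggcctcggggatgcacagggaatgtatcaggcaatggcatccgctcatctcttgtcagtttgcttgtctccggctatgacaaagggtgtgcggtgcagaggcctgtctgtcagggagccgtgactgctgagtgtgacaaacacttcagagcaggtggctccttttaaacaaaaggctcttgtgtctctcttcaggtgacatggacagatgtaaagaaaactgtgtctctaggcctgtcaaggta
In the Mki67 promoter the second TTTGAA runs into an ATTGG with shared bases. Promoters of Top2a and Mki67 held both motifs. The window of Aurka held neither. It has an ATG in the 50 bases after the annotated start, followed by an uninterrupted reading frame. The bases before that start end like an intron. This window may therefore lie inside the gene, and its lack of matches is not read as a lack in the promoter. Of 23 list members with a promoter, 18 held CCAAT (78.3%), 13 held TTTGAA (56.5%) and 11 held both (47.8%), against 37.7%, 18.1% and 7.25% of all 27457 promoters. These matches describe the sequence and are no evidence of binding.

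Top2a, the topoisomerase that untangles DNA before chromosomes separate, ran from -2.02 to 0.34 at day 10 (median -0.48), from -1.06 to -0.47 at day 14 (median -0.70) and from -6.06 to -2.15 at day 21 (median -2.38). All 6 late arrays lay below all 12 earlier ones, and Top2a fell by 2.40 ± 0.52 (adjusted p = 0.00212). Mki67, the nuclear antigen that marks cycling cells, had its median at -0.00 at day 10 (-0.73 to 0.65), -1.02 at day 14 (-1.99 to -0.44) and -2.52 at day 21 (-3.64 to -1.51). Late values lay below every day 10 value and overlapped those of day 14. Mki67 changed by -1.88 ± 0.37 (adjusted p = 0.000589), and its call also stood in the fit of the 18 arrays alone (adjusted p = 0.0426). Cyclin A2 (Ccna2), needed for DNA synthesis and entry into mitosis, was between -3.03 and 0.23 at day 10, between -3.28 and -0.87 at day 14 and between -5.28 and -2.62 at day 21, a change of -2.42 ± 0.48 (adjusted p = 0.000703). Its late values reached into the earlier range. The mean over its 2 probes gave -1.24, so the other probe showed little of this fall and the change rests on 1 probe.
Aurka, the Aurora A kinase of the spindle poles, and Tpx2, the spindle protein that activates it, passed less firmly. Rat 11 of day 10 had an Aurka value of 6.18 where the other 5 lay between -1.92 and 0.31, and day 21 ran from -2.96 to -1.21. The change of Aurka was -1.72 ± 0.51 (adjusted p = 0.0323), and without that array it was -1.13 (adjusted p = 0.0578). Its call also ended without rat 10, 13 or 15 of day 21 (adjusted p from 0.0542 to 0.0941). Tpx2 stood at the floor on 2 arrays of day 21 and up to 0.04 on the others, and its change was -2.35 ± 0.60 (adjusted p = 0.00946). Without rat 11 or 12 of day 21 Tpx2 was at -1.62 (adjusted p = 0.127 and 0.103). Members that did not pass included the mitotic cyclins Ccnb1 (-1.18 ± 0.41, adjusted p = 0.0786) and Ccnb2 (-1.81 ± 0.63, at the floor on 1 array). Genes of DNA replication stood at 0.03 ± 0.41 for Mcm6, -0.06 ± 0.49 for Mcm3 and -1.38 ± 0.60 for Pcna, the clamp of DNA polymerase, and Rrm2, a ribonucleotide reductase subunit, stood at 2.51 ± 0.85 (adjusted p = 0.0712). Birc5, Cenpf, Ube2c and Cdc20 also stood above 0, at 0.02 to 0.81. The list score, the mean log2 value of its members on an array, ranged from -1.50 to -0.50 at day 10, -1.63 to -0.73 at day 14 and -2.06 to -1.49 at day 21. In the fit of the 18 arrays alone 1 member passed (9 lower at an unadjusted p under 0.05), and after quantile normalization 0 did (2 lower).

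**Figure D1:**
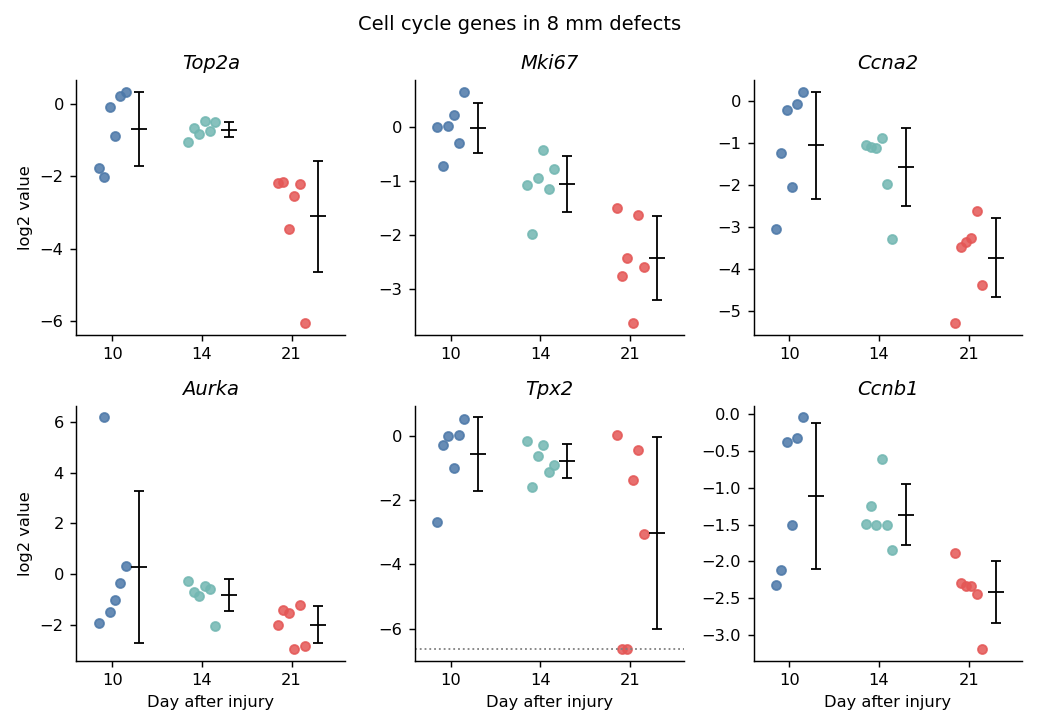
Log2 value (vertical axis) of 6 cell cycle genes in 8 mm defects against the day after injury (horizontal axis); each point is 1 array, bars give the mean and SD of 6 arrays, and the dotted line is the floor at -6.64. Top2a at day 21 lies at -2.15 or lower, below all earlier arrays, while a single day 10 array stands at 6.18 for Aurka and 2 day 21 arrays of Tpx2 lie at the floor.

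Of 14 measured genes of T and natural killer cells 4 rose and 0 fell (limma; 7 higher and 0 lower at an unadjusted p under 0.05), beside 0.626% and 3.94% of all genes. The median of the list was 1.17 (0.84 after quantile normalization), and 12 of 14 changes were positive, beside 2492 of the 6822 genes above the floor. Cd3g, the gamma chain of the T cell receptor complex, ran from 0.01 to 1.39 at day 10 (median 0.44), from 0.01 to 1.76 at day 14 (median 1.13) and from 1.95 to 2.58 at day 21 (median 2.10). The late arrays were all above the earlier ones, and Cd3g rose by 1.33 ± 0.36 (adjusted p = 0.0181). Zap70, the kinase that binds the activated receptor, had medians of 0.66, 0.79 and 1.68 at days 10, 14 and 21, and ranged from -0.61 to 1.41 earlier and from 1.27 to 2.04 late. The lowest late value lay inside the earlier range, and the change was 1.13 ± 0.32 (adjusted p = 0.0232).
Perforin (Prf1) and granzyme A (Gzma), the pore protein and protease of cytotoxic granules, rose by 1.35 ± 0.38 (adjusted p = 0.0204) and 1.39 ± 0.42 (adjusted p = 0.036). Prf1 lay between 1.64 and 2.97 at day 21 (median 2.53) against medians of 0.84 at day 10 and 0.90 at day 14, and Gzma between 1.02 and 2.85 (median 2.23) against 0.74 and 1.02. All 6 late arrays exceeded the earlier mean for all 4 genes, and of these 4 only Cd3g showed no overlap. Other members stood in the same direction without passing: Lck, the kinase of the CD4 and CD8 co-receptors, at 1.55 ± 0.51 (adjusted p = 0.0597), Cd3d at 1.30 ± 0.42 (adjusted p = 0.0545), Nkg7 at 1.27 ± 0.50 and Cd8a at 0.82 ± 0.46. Cd3e stood at 0.76 ± 0.62, Cd8b at 0.14 ± 0.33, Cd4 at -0.53 ± 0.67 and the interleukin-7 receptor Il7r, at the floor on 9 arrays, at -0.11 ± 1.12. The list score ranged from -1.09 to 1.05 at day 10, -1.09 to 0.92 at day 14 and 0.15 to 1.58 at day 21.
The count of 4 fell to 1 without rat 15 of day 21 and to 2 without rat 14. Gzma lost its call on leaving out any of 9 arrays (adjusted p from 0.0501 to 0.111), Prf1 without rat 15 of day 21 (0.0685) and Zap70 without rat 14 or 15 (0.0542 and 0.0632), while Cd3g kept its call in all 18 such fits. None of the 4 passed in the fit of the 18 arrays alone, where Cd3g had an adjusted p of 0.0819 and 7 members an unadjusted p under 0.05, or after quantile normalization, where Cd3g stood at 0.87 and 3 members had such a p; with centring 6 passed.
Of 10 measured B and plasma cell genes 1 rose and 0 fell, beside 0.626% and 3.94% of all genes. The list median was 0.47, with 7 changes positive and 3 negative. The negative ones were Pou2af1 (-1.19 ± 1.19), Igll1 (-0.40 ± 1.93) and Ebf1 (-0.18 ± 0.34), and Ms4a1 stood at 0.13 ± 1.39. Cd79b, a signalling chain of the B cell receptor, rose by 2.06 ± 0.56 (adjusted p = 0.0159). It stood between 2.02 and 3.39 at day 21, against -0.37 to 2.09 at day 10 and -3.40 to 2.22 at day 14, where rat 11 alone gave the low end. Its partner Cd79a, at the floor on 6 arrays, had a change of 2.11 ± 1.18 (adjusted p = 0.349). Tbc1d10c, a GTPase-activating protein abundant in lymphocytes and named here after its values were seen, rose by 1.49 ± 0.34 (adjusted p = 0.00315), from medians of 0.42 and 0.38 to 1.95, and passed in the fit of the 18 arrays alone (adjusted p = 0.0479).

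**Figure D2:**
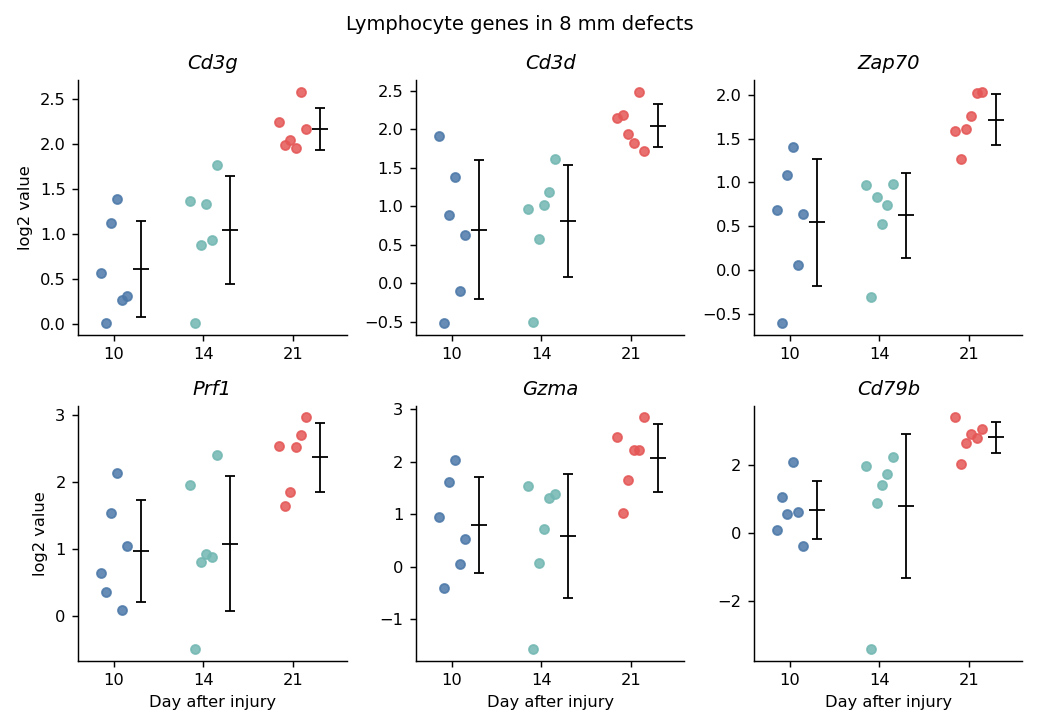
Log2 value (vertical axis) of 5 T and natural killer cell genes and the B cell gene Cd79b in 8 mm defects against the day after injury (horizontal axis); points are arrays and bars the mean and SD of 6. For Cd3g the 6 arrays of day 21 lie at 1.95 or higher, above all earlier arrays, and for Cd79b a single array of day 14 stands at -3.40.

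Genes of bone formation showed no common change. Of 23 measured members 0 rose and 1 fell (limma, with 1 and 2 at an unadjusted p under 0.05), beside 0.626% and 3.94% of all genes. The median was 0.04, which turned to -0.10 after quantile normalization. Osteocalcin (Bglap), secreted by mature osteoblasts, ran from 4.08 to 5.73 at day 10 (median 4.51), from 2.82 to 6.60 at day 14 (median 5.72) and from 4.82 to 7.17 at day 21 (median 6.28). The groups overlapped, and its change was 1.23 ± 0.91 (adjusted p = 0.517). In the limma fit of the 18 arrays alone the SE of Bglap was 0.50 (unadjusted p = 0.0269, adjusted p = 0.341). Bone sialoprotein (Ibsp), which nucleates mineral, had medians of 1.72, 2.19 and 1.77 and a change of -0.04 ± 1.03. The chains of type I collagen stood at 0.43 ± 0.34 (Col1a1) and 0.30 ± 0.36 (Col1a2), alkaline phosphatase (Alpl) at -0.95 ± 0.89 and osteopontin (Spp1) at -0.79 ± 0.40. The osteoblast transcription factors Runx2 and Sp7 stood at 1.35 ± 1.14 and 0.83 ± 1.54, each at the floor on 3 arrays.
The member that fell was Tnn, tenascin-W, a matrix protein of periosteum and forming bone. It lay between -0.86 and 1.24 at day 10, between -0.79 and 0.28 at day 14 and between -3.69 and -0.71 at day 21, and fell by 2.0 ± 0.50 (adjusted p = 0.0081). The highest late value reached into the earlier range, and the call ended without rat 15 of day 21 (-1.67, adjusted p = 0.0542). Of 9 osteocyte genes 0 passed (0 higher and 1 lower at an unadjusted p under 0.05). Dmp1, which regulates mineral in the osteocyte matrix, had medians of 2.50, 2.79 and 1.07 and a change of -1.67 ± 0.96 (adjusted p = 0.369), and Mepe stood at 0.18 ± 0.93. For Dmp1 the limma fit of the 18 arrays alone gave an SE of 0.59 (unadjusted p = 0.0116, adjusted p = 0.263). The sclerostin gene Sost was at the floor on 11 of the 18 arrays. The Runx motif ACCACA, read as TGTGGT from the other strand, was present in 3 of 17 bone formation promoters (17.6%) and 2 of 7 osteocyte promoters (28.6%), against 16.9% of all promoters.
None of 12 osteoclast genes passed (0 higher and 1 lower at an unadjusted p under 0.05), with a median of -0.61. Cathepsin K (Ctsk), which digests bone collagen, had medians of 1.13, 0.63 and 0.47 and a change of -0.65 ± 0.38 (adjusted p = 0.369), and the tartrate-resistant phosphatase Acp5 one of -0.49 ± 0.37. The RANK ligand gene Tnfsf11, at the floor on 4 arrays, stood at 2.33 ± 1.39. Among 16 cartilage genes 0 passed (1 higher and 3 lower at an unadjusted p under 0.05), while 12 changes were positive and the median was 0.39. Type II collagen (Col2a1) stood at 1.90 ± 0.99, with 3 arrays of day 14 and none of the other days at the floor, and aggrecan (Acan) had medians of -0.09, -1.03 and -2.16 with a change of -1.69 ± 0.69 (adjusted p = 0.158).

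**Figure D3:**
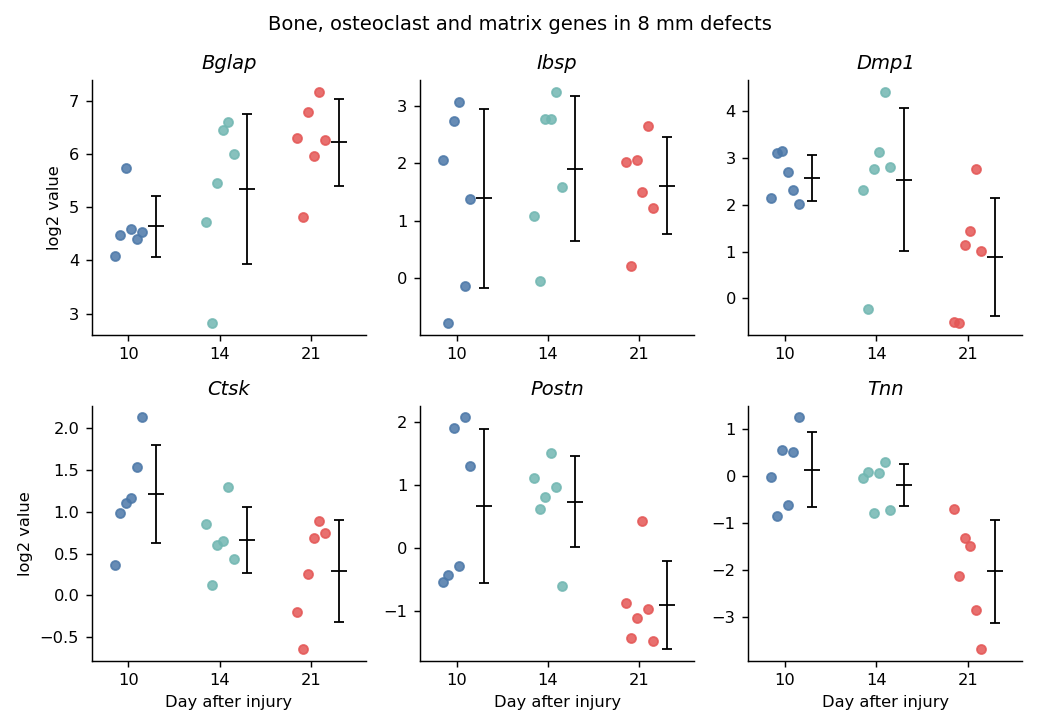
Log2 value (vertical axis) of bone, osteoclast and matrix genes in 8 mm defects against the day after injury (horizontal axis); points are arrays and bars the mean and SD of 6. Bglap at day 21 (4.82 to 7.17) overlaps the earlier days, whereas Postn and Tnn have day 21 medians of -1.05 and -1.82 against earlier medians of 0.00 to 0.88.

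Most genes of the wound matrix stood below 0, and 1 passed. In the fibroblast and wound matrix list 17 of 19 changes were negative, beside 4330 of the 6822 genes above the floor. The list median was -0.59 beside -0.23 for all genes, and after quantile normalization -0.42 beside 0.05. In this list 1 gene fell while 0 rose (limma, with 4 lower and 0 higher at an unadjusted p under 0.05). Periostin (Postn), a matrix protein of periosteum and healing tissue, had medians of 0.50 at day 10, 0.88 at day 14 and -1.05 at day 21. Its late range of -1.48 to 0.43 overlapped the earlier one of -0.60 to 2.07, and rat 13 of day 21 gave the high end. Postn fell by 1.61 ± 0.44 (adjusted p = 0.0173), and its call ended without rat 11 or 15 of day 21 (adjusted p = 0.0555 and 0.0547). The fibrillar collagens Col5a1 and Col5a2 stood at -0.98 ± 0.40 and -0.83 ± 0.37, fibronectin (Fn1) at -0.82 ± 0.39 and Col12a1 at -0.87 ± 0.44, all without passing. Type III collagen (Col3a1), the other positive member besides Ogn, stood at 0.57 ± 0.32.
Of 19 matrix proteases and inhibitors 1 fell and 0 rose (1 higher and 3 lower at an unadjusted p under 0.05). With 3.94% of all genes lower, 1 gene in a list of 11 to 23 is near the background. That applies here and in the wound matrix, macrophage, bone formation, Wnt, FGF and IGF, circadian clock, meningeal and erythroid lists. The protease was Mmp19, at the floor on 5 of 6 late arrays and on 1 of day 10, with -3.89 ± 0.87 (adjusted p = 0.00298), while the probe with fewer floor values gave -1.62. Collagenase 3 (Mmp13), made by osteoblasts and chondrocytes, had medians of 1.51, 1.71 and 1.20 and a change of -0.28 ± 0.56.

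Among myeloid genes, the scavenger receptor Msr1 of macrophages fell. It ranged from -2.80 to 0.46 at day 10 (median -0.59), from -2.85 to -0.00 at day 14 (median -0.83) and from -6.06 to -2.08 at day 21 (median -3.20), a change of -2.57 ± 0.48 (adjusted p = 0.000262). Late values overlapped the low end of the earlier days. It was the only one of 16 macrophage genes to pass (4 lower and 0 higher at an unadjusted p under 0.05). In the list 14 of 16 changes were negative, beside 4330 of the 6822 genes above the floor. Its median was -0.57 beside -0.23 for all genes, and after quantile normalization -0.24 beside 0.05. Cd68 stood at -0.79 ± 0.35, Trem2 at -0.80 ± 0.34 and Adgre1, the F4/80 antigen, at -0.29 ± 0.38. Ccl12, a chemokine that attracts monocytes, fell by 2.16 ± 0.56 (adjusted p = 0.0108), from medians of -0.45 and -1.55 to -2.60, with overlapping groups.
None of 15 neutrophil genes passed, with 4 higher and 0 lower at an unadjusted p under 0.05 and a median of 0.78. The changes were mixed, 10 positive and 5 negative. S100a9, a calcium-binding protein abundant in neutrophils, had medians of -0.13, 0.24 and 1.24 and a change of 1.30 ± 0.51 (adjusted p = 0.135). For S100a9 the limma fit of the 18 arrays alone gave an SE of 0.29 (unadjusted p = 0.000337, adjusted p = 0.0894). S100a8, at the floor on 5 arrays, stood at -0.41 ± 1.34, and its probe with the fewest floor values gave 1.12. Lcn2 stood at -1.20 ± 0.72 and Ngp, at the floor on 6 arrays, at -2.33 ± 1.22. The list medians were -0.71 for 18 inflammatory cytokines (0 passing, 1 lower at an unadjusted p under 0.05) and -0.61 for 17 interferon response genes (0 passing, 2 lower). After quantile normalization these 2 medians were -0.06 and -0.37, beside 0.05 for all genes. For 9 genes of MHC class II presentation the median was -0.03 (0 passing, 2 lower), and its sign turns with either scaling. Il1b stood at 0.60 ± 0.43, Il6 at -0.95 ± 0.56 and Cd74 at 0.08 ± 0.33.

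Signalling lists gave single genes. Rspo3, a secreted enhancer of Wnt signalling, was 1 of 19 Wnt genes to pass (-3.05 ± 0.94, adjusted p = 0.0404), at the floor on 2 arrays of day 21, and was -1.99 without either rat 10 or rat 11 of day 21 (adjusted p = 0.266 and 0.281). Its call ended without any of 8 arrays, these included. Fgf7, a growth factor made by mesenchymal cells for epithelium, was 1 of 16 FGF and IGF genes to pass (-2.31 ± 0.69, adjusted p = 0.0346), and its call ended without any of 7 arrays (adjusted p up to 0.218). Of 23 BMP and TGF-beta genes 0 passed (2 higher and 3 lower at an unadjusted p under 0.05), with the BMP antagonist Grem1 at -1.84 ± 0.62 (adjusted p = 0.0691), the activin subunit Inhba at -1.66 ± 0.55 (adjusted p = 0.0649) and Bmp2 at -0.14 ± 1.42. Of 13 circadian clock genes Per2 alone passed (-1.86 ± 0.57, adjusted p = 0.0404), beside 3.94% of all genes lower. Without rat 15 of day 21 Per2 was at -1.13 (adjusted p = 0.303). The adjusted p of Per2 also rose above the threshold on leaving out any of 8 other arrays.
Genes of tissues that border the hole or enter the plug were listed as well. Of 11 meningeal genes the transcription factor Zic1 alone passed, beside 3.94% of all genes lower, and fell by 2.60 ± 0.80 (adjusted p = 0.0413). Without rat 11 or 15 of day 21 it stood at -1.71 and -2.29 (adjusted p = 0.28 and 0.128), 2 of 8 arrays whose omission ended the call. Of 12 erythroid genes 11 were positive with a median of 0.82 (0.42 after quantile normalization), beside 2492 of the 6822 genes above the floor. Tfrc, the transferrin receptor, alone passed, beside 3.94% of all genes lower. Its change was in the opposite direction (-5.52 ± 1.48, adjusted p = 0.015, at the floor on 5 late arrays), and its probe with the fewest floor values gave -0.12. None of the 18 muscle, 12 brain, 10 epidermis, 9 mast cell, 13 adipocyte, 16 endothelial or 13 smooth muscle and pericyte genes passed, and at an unadjusted p under 0.05 these lists held 2, 1, 1, 2, 2, 2 and 4 genes. The brain list had a median of -0.57 in 8 mm and 2.78 in 4 mm defects, and without the 9 arrays of the series with a brain score above 2, 1 of them among the 18, 781 genes passed. Ribosomal and respiratory chain genes lay near the all-gene median, at -0.10 and -0.08, with 0 of 16 and 0 of 15 passing (2 and 0 at an unadjusted p under 0.05).

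**Figure D4:**
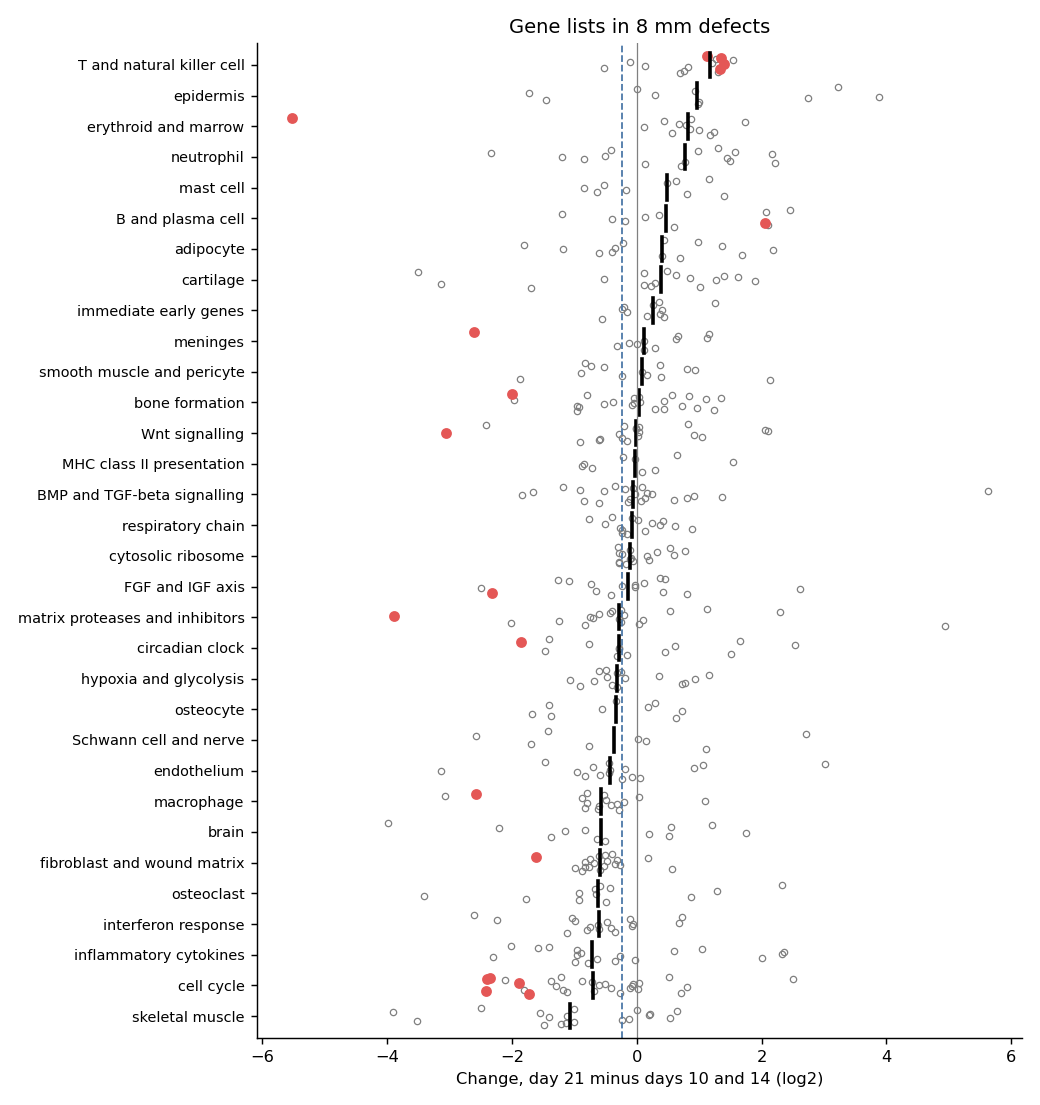
Change from days 10 and 14 to day 21 in 8 mm defects (horizontal axis, log2) for the measured genes of 32 lists (vertical axis, ordered by median); filled points passed the threshold, open points did not, black bars are list medians and the dashed line is the median of all genes at -0.23. The T and natural killer cell list has the highest median (1.17) with 4 filled points, and the cell cycle list holds 5 filled points below 0.

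The largest decreases among genes free of floor values mixed several functions. Sf3b2, a subunit of the spliceosome, stood between -1.51 and 0.54 earlier and between -6.57 and -1.38 at day 21, with -2.86 ± 0.47 (adjusted p = 3.26e-05). Its 2 probes disagreed in size, the other giving -0.67. Rab14, a small GTPase of endosomes, changed by -2.35 ± 0.38 (adjusted p = 1.92e-05), from medians of 1.03 and 0.56 to -1.20. Gfra2, a receptor for neurturin, changed by -2.35 ± 0.43, and Tns3, a tensin at focal adhesions, by -2.21 ± 0.36 (adjusted p = 3.22e-05), from medians of 0.63 and 0.23 to -1.59. Tipin, a partner of Timeless at replication forks that is not on the cell cycle list, fell by 2.13 ± 0.46 (adjusted p = 0.00218). The others were Zbed5 (-2.61), Poglut1, which adds glucose to Notch (-2.18), and the exocyst subunit Exoc1 (-2.17), with Msr1, Ccna2, Top2a and Ccl12 described above. Calls of Exoc1 ended without rat 10 or 11 of day 21 (adjusted p = 0.171 and 0.178), and that of Zbed5 without rat 10 (0.0603). Rat 11 of day 21 was the lowest of its 6 for 64 of the 161 lower genes and also for 28 of the 56 higher genes.
The largest increase among passing genes free of floor values was that of Pde6h, an inhibitory phosphodiesterase subunit known from cone cells. It lay between -0.65 and 2.27 at day 10, between -0.36 and 1.08 at day 14 and between 2.86 and 4.17 at day 21, with no overlap, and rose by 2.78 ± 0.75 (adjusted p = 0.0152). The prostacyclin receptor Ptgir rose by 2.67 ± 0.82 (adjusted p = 0.0416), with all late arrays at 2.37 or more and all earlier ones at 2.34 or less, though its call ended without any of 10 arrays (adjusted p up to 0.0939). Tnfrsf14, the herpesvirus entry mediator of lymphocytes, rose by 1.94 ± 0.48 (adjusted p = 0.00756), from medians of 1.16 and 0.17 to 2.41, again with no overlap. Gdf2, which encodes BMP9, rose by 2.0 ± 0.51 and Gp9, a subunit of the platelet receptor for von Willebrand factor, by 1.82 ± 0.53 (adjusted p = 0.0288). The others were Sergef (2.33), Angptl6 (2.05), the forkhead factor Foxd4 (1.88), the ubiquitin ligase March6 (1.88), Cnnm3 (1.83) and the thioesterase Acot11 (1.80). The mean over the 2 probes of March6 gave 0.42, so its other probe had the opposite sign. For Cnnm3 the mean over 2 probes gave 1.14. Sergef has a second probe with the opposite sign (-0.47), and leaving out 1 array ended the calls of Sergef (11 arrays), Cnnm3 (8), Gp9 (5), Acot11 (3), Angptl6 (2) and Gdf2 (2).
Late and earlier arrays did not overlap for 26 of the 729 genes, 12 higher and 14 lower. Over all genes the 6 late arrays lay above all 12 earlier ones for 21 (0.131%) and below them for 14 (0.0876%). Of the 20 genes called both in all arrays and in the 18 alone, 8 were above the floor on all 18, and those not yet described were picked after their values were seen. Ncam1, a cell adhesion molecule, had medians of 0.48, 0.17 and -1.20 and fell by 1.65 ± 0.29 (adjusted p = 8.45e-05). Calreticulin (Calr), a chaperone of the endoplasmic reticulum, went from 0.98 and 0.48 to -0.85 and fell by 1.49 ± 0.33 (adjusted p = 0.00312). The poly(A)-binding protein Pabpc4 fell by 1.53 ± 0.37 (adjusted p = 0.00586) and the RNA-binding Rbm34 by 1.80 ± 0.32 (adjusted p = 0.00011). Of these 4, Ncam1, Calr and Pabpc4 showed no overlap.

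Both earlier days contributed to the pooled difference. Day 21 differed from day 10 in 417 genes (2.61%), 84 higher (0.526%) and 333 lower (2.08%), and from day 14 in 449 genes (2.81%), 77 higher (0.482%) and 372 lower (2.33%). The share of higher genes moved with the scaling: against day 10 it was 20.1%, with centring 32.7% and with quantile normalization 0 of 19 genes, and against day 14 it was 17.1%, 41.7% and 57.6% (19 of 33). These comparisons share the day 21 arrays. Top2a stood at -2.40 against day 10 (adjusted p = 0.0136) and at -2.39 against day 14 (adjusted p = 0.0139). Mki67 was -2.40 against day 10 (adjusted p = 0.00025) and -1.36 against day 14 (adjusted p = 0.0593). Cd3g was 1.55 against day 10 (adjusted p = 0.0262) and 1.11 against day 14 (adjusted p = 0.138). Foxd4 was 0.96 against day 10 (adjusted p = 0.477) and 2.80 against day 14 (adjusted p = 0.00312).
Days 10 and 14 differed from each other in 8 genes (0.0501%; limma, 1267, or 7.93%, at an unadjusted p under 0.05), 5 higher (0.0313%) and 3 lower (0.0188%). Cnot4 (8.01), Or5a21 (7.21), Nrn1 (5.23), Or14a258 (4.26) and Ovol2 (3.87) were higher at day 14, and Eno4 (-5.37), Tnfsf14 (-5.14) and Kdm5b (-3.90) were lower. Each of the 8 was at the floor on 2 to 6 arrays of the lower day. In the fit of the 18 arrays alone 0 passed (560 at an unadjusted p under 0.05).

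In 4 mm defects, which share no array with the 8 mm groups, the same comparison (6 arrays against 4 and 5) called 151 genes (0.945%), 67 higher (0.419%) and 84 lower (0.526%). Of the 217 genes above the floor that changed in 8 mm defects, 167 had the same sign in 4 mm defects (76.96%), beside 62.52% of all 6822 such genes. The share was 89.29% for the 56 higher genes, beside 65.65% of all such genes with a positive change. For the 161 lower genes it was 72.67%, beside 60.72% of those with a negative change. The higher genes had a median change of 1.38 in 8 mm and 0.48 in 4 mm defects, and the lower genes -1.46 and -0.43. The genes were chosen by their change in 8 mm defects, which favours larger values there. The difference of the change between sizes passed for 14 of the 217, and for 128 of all genes (0.801%), with the change lower in 8 mm for 115 (0.72%) and higher for 13 (0.0814%). Without the arrays of high brain score 73 genes passed and this split turned, with 40 higher and 33 lower.
For most genes named above no difference between sizes was detected. Mki67 fell in 4 mm defects too (-1.81 ± 0.39, adjusted p = 0.00588; difference between sizes adjusted p = 0.979). Top2a stood at -0.83 ± 0.55 in 4 mm (difference adjusted p = 0.371) and Cd3g at 0.76 ± 0.39 (difference adjusted p = 0.741). The cell cycle list had a median of -0.95 in 4 mm and the T and natural killer cell list one of 0.52. Tnn was -1.78 ± 0.53 and Postn -0.66 ± 0.46.
Several genes whose change did differ had late arrays at the floor. Thy1, a surface glycoprotein of fibroblasts and neurons, had medians of 0.01 and -0.15 at days 10 and 14 and -5.63 at day 21, where 3 arrays were at the floor. Its change was -4.58 ± 0.51 in 8 mm (adjusted p = 9.1e-10) and 0.06 ± 0.54 in 4 mm defects, and the difference had an adjusted p of 0.000244. Hccs, the enzyme that attaches heme to cytochrome c, was -4.26 ± 0.90 in 8 mm and 3.49 ± 0.95 in 4 mm defects (difference adjusted p = 0.000273), with 3 late 8 mm arrays at the floor. Cnnm2, a membrane protein of magnesium transport, differed through the smaller hole, with -0.68 ± 0.55 in 8 mm and 4.03 ± 0.58 in 4 mm defects (difference adjusted p = 0.000273). Fez2 (-3.42 and -0.08), Zbtb43 (-3.70 and 3.14) and Mat2a, a methionine adenosyltransferase (-4.46 and 0.74), also differed, and for these the 2 probes of the gene disagreed in size, the probe with fewer floor values giving -0.40, -0.40 and -1.60 in 8 mm defects. Above the floor in the 8 mm groups, Sf3b2, Rab14 and Poglut1 were lower in 8 mm and stood at 0.04, -0.07 and 1.14 in 4 mm, and Ccl12 fell further in 4 mm (-5.41 ± 0.59, difference adjusted p = 0.0298). In 4 mm defects the lowest value was at the floor for Sf3b2 and Poglut1 at day 14 (medians -1.17 and -0.40). The same held for Ccl12 at day 21 (median -4.49). In a fit of the 33 arrays of these days alone 0 differences passed (1059 at an unadjusted p under 0.05).

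**Figure D5:**
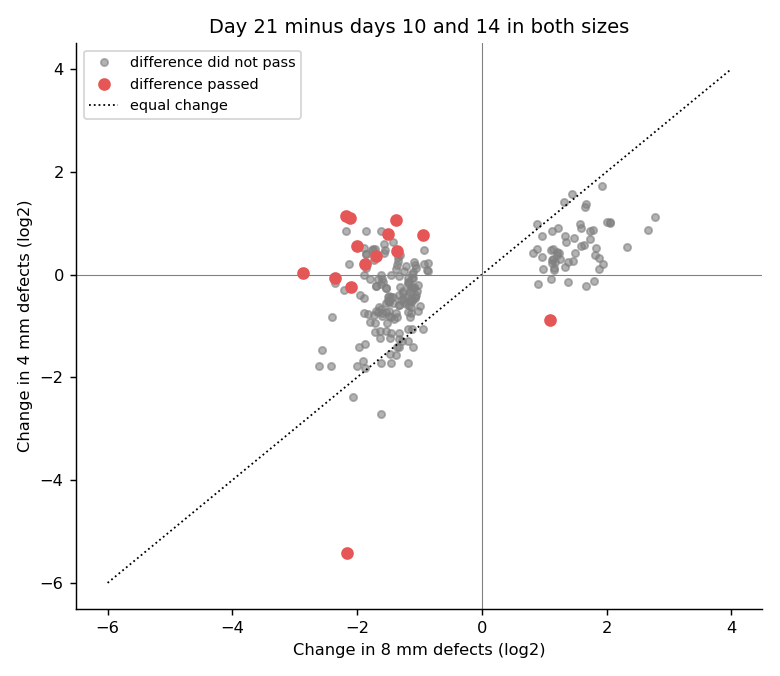
Change from days 10 and 14 to day 21 in 8 mm defects (horizontal axis, log2) and in 4 mm defects (vertical axis, log2) for the 217 genes above the floor that passed in 8 mm defects; large points are the 14 whose change differed between sizes and the dotted line marks equal change. The genes were chosen by the horizontal value, so their spread along it is set by the choice, and 167 of 217 share the sign.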

How the data were processed

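RNA of 93 calvarial defects was measured on 1-colour Agilent rat arrays, per the labels. The authors deposited a table of ratios for 41090 probes, with no value below 0.01. Of all values 13.42% lay at that floor, and 87.76% of probes had a median within 0.005 of 1 over the series. The direction is therefore higher signal for higher ratio, as for any 1-colour array, while how arrays were scaled, and what set the floor, is not given in the sources used here. The table was planned for as log2 values, and log2 was taken of the ratios without a pseudocount. Of the probes, 20932 had 1 gene symbol, 0 several and 20158 none, and 17415 named probes were matched to RefSeq, which updated 2315 symbols. For the 3881 genes with several probes, the probe with the largest interquartile range over all arrays stood for the gene, which left 15974 genes.

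A linear model with 14 day and size groups was fitted to all 93 arrays with limma 3.58.1 (lmFit, eBayes) in R 4.3.3, with Benjamini-Hochberg adjustment and a threshold of 0.05. It had 79 residual and 1.9 prior degrees of freedom. It was also run on simulated normal values without a floor, which cannot show how it behaves for genes with floor values. Tables and plots used numpy 2.4.6, pandas 2.3.3, scipy 1.17.1 and matplotlib 3.10.9. None of the 18 arrays were identical (0 pairs), and correlations between their log2 values ran from -0.044 to 0.253. The members and the 32 gene lists (476 of 514 entries measured) were chosen with earlier results of these data known. Named genes were the 12 largest increases and 12 largest decreases among passing genes above the floor on all 18 arrays, the leading 2 members and up to 3 passing members of each list, and the 6 smallest p-values for the difference between sizes. Other genes in the text are list members, or were named after their values were seen (Mki67, Aurka, Zap70, Calr, Ncam1, Pabpc4, Rbm34, Tbc1d10c, and the 8 genes differing between days 10 and 14). Alternatives were another scaling, probe rule, floor, filter, set of arrays, array weights, tissue scores as covariates, the rat number as a block, and leaving out each array.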

Additional observations from a re-analysis of the deposited data

Results flagged for a closer look

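In 34 of 333 groups of 6 arrays tested (named genes and array measures by day), the highest or lowest array stood further from the other 5 than Dixon's critical value allows. Chance marks about 5% of such groups, and no explanation was tested.

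Rat 11 of day 10 stood apart for Aurka (6.18, the other 5 at -1.92 to 0.31), Acot11 (-2.77, others 0.92 to 2.44), Gp9 (-2.69, others 0.68 to 1.26), S100a9 (-1.40), Il1b (-1.34) and the share of values at the floor (10.4%, others 17.4 to 20.3%). Elsewhere at day 10, rat 13 was apart for Zbed5 (-3.22) and Bmp2 (-6.64), rat 10 for Zbtb43 (-6.64), rat 15 for S100a8 (-6.64) and rat 12 for Bglap (5.73, others 4.08 to 4.59).

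At day 14, rat 15 was apart for Msr1 (-2.85, others -1.05 to -0.00), Aurka (-2.04), Angptl6 (-1.89), Per2 (-2.18) and Gfap (-6.64). Rat 11, which had the high score of brain genes (4.15), was the low array for Cd79b (-3.40, others 0.89 to 2.22), Zap70 (-0.31) and Tbc1d10c (-0.61). Rat 12 had the high score of muscle genes (1.51, others -2.71 to -1.38), rat 13 was low for Rab14 (-0.86) and rat 10 for S100b (-6.64).

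At day 21, rat 15 was the low array for Top2a (-6.06, others -3.47 to -2.15), Per2 (-5.98) and Acan (-6.45). Rat 11 was low for Acot11 (1.22) and Foxd4 (0.69) and high for Tfrc (1.60, others at the floor). Rat 10 was high for Pde6h (4.17, others 2.86 to 3.35) and Mmp19 (-0.49, others at the floor) and low for Per1 (-6.64). Rat 13 was high for Postn (0.43, others -1.48 to -0.87), and rat 14 was low for Krt14 (-2.19).

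For 12 named genes the change differed between sizes by the limma test of that difference. The change in 8 mm minus that in 4 mm defects was -2.89 for Sf3b2, -2.28 for Rab14, -3.31 for Poglut1, 3.25 for Ccl12 and -4.71 for Cnnm2. It was -5.40 for Mmp19, -8.33 for Tfrc, -4.64 for Thy1, -3.34 for Fez2, -6.84 for Zbtb43, -7.75 for Hccs and -5.20 for Mat2a, all of which had day 21 arrays of 8 mm defects at the floor.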

How the results depend on the processing

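Counts passing the limma threshold are given in 1 order: day 21 against days 10 and 14, day 21 against day 10, day 21 against day 14, day 14 against day 10, and the difference between sizes (729, 417, 449, 8 and 128 as reported). Quantile normalization gave 53, 19 and 33 for the comparisons with day 21 and 8 for the difference, and centring each array gave 1134, 753, 720, 3 and 203. The more variable genes alone gave 152, 82, 66, 5 and 29, with fewer genes tested. Only 24 of the 49 named genes that passed had a value in that setting. Raising values under 0.25 gave 390, 209, 195, 0 (1139 at an unadjusted p under 0.05) and 18. Genes above the floor alone gave 194, 87, 98, 0 (269 unadjusted) and 15, with fewer genes tested. The compared arrays alone gave 22, 4, 5, 0 (560 unadjusted) and 0 (1059 unadjusted). Leaving out the 7 low-level arrays of the series, 2 of them among the 18, gave 1936, 1193, 974, 19 and 209. Without the arrays of high brain score the last 2 counts were 19 and 73, and the mean of all probes gave 5 for day 14 against day 10. The 5 lower cell cycle genes became 0 with quantile normalization (2 unadjusted), 1 with the compared arrays alone, 2 with raised values and 9 without low-level arrays. The 4 higher T and natural killer cell genes became 0 with quantile normalization (3 unadjusted), the variable genes (2 unadjusted), array weights (7 unadjusted) or the compared arrays alone (7 unadjusted). Members outside the variable genes were not tested in that setting and could not pass there. Where no construction is named, the cause was not tested.

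The rat number as a replicate block, with the compared arrays alone, gave 4, 1, 1, 0 (591 unadjusted) and 20, and 0 cell cycle (9 unadjusted) and 0 T and natural killer cell genes (9 unadjusted). Samples of 1 number did not deviate together: 0 of 18 pairs had a correlation above 0.1 (-0.036 to 0.056), so the number was not taken as a pairing.

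Leaving out each of the 18 arrays gave 509 to 961, 281 to 553, 303 to 635, 4 to 23 and 105 to 218 genes, 4 to 7 cell cycle genes and 1 to 5 T and natural killer cell genes. The difference in the floor share was 3.96 to 5.05 points and that in array level -0.275 to -0.119. The difference between sizes gave 194 to 218 genes without rat 10 of day 10, rat 15 of day 14 or rats 10, 13 or 14 of day 21. Day 14 against day 10 gave 13 to 23 genes without rats 12, 14 or 15 of day 10 or rat 12 of day 14, and 5 and 4 without rats 11 and 15 of day 14. Of 49 named genes that passed, 29 did so in all 18 fits, 5 after quantile normalization, 9 with the compared arrays alone and 1 with the block. The sign of Sergef turned with the probe of fewest floor values (-0.47).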
